A study of Mus musculus with 6 samples.

Results

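Mouse chemically induced cardiovascular progenitor cells (ciCPCs) were sequenced at passage 3 and passage 20, and the 9 genes described here make and break down glycogen. They were chosen by name and role out of 53801 genes in the count files: Ugp2, Gyg, Gys1 and Gbe1 for synthesis, Pygb, Pygl and Pygm for breakdown, and Ppp1r3b and Ppp1r3c for control. The difference between passages was known when they were chosen, so their differences are given as a description, with no p-value. All 9 were found by symbol and all 9 passed the filter on low counts, which kept 15143 genes. The cells were reprogrammed from fibroblasts and grown on from colonies picked at day 14. Both groups were wild type, of mixed C57BL/6 and 129J/SvE origin, and both grew in basal medium with BMP4, Activin A, CHIR99021 and SU5402. There were 3 libraries per passage, with 11387738 to 17721788 counts in genes. The labels do not say whether replicates were separate cultures, so p-values here cover the spread of these libraries alone and that spread may be technical. Passage cannot be told apart from culture or library batch.

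Glycogen is a branched polymer of glucose that cells keep as a reserve. UDP-glucose is its building block, glycogenin primes a new particle, glycogen synthase lengthens the chains and the branching enzyme adds branch points. Glycogen phosphorylase releases glucose 1-phosphate from chain ends, and its muscle, liver and brain forms come from separate genes. Phosphorylation by glycogen synthase kinase 3 lowers the activity of glycogen synthase, and protein phosphatase 1, brought to the particle by targeting subunits, reverses it. CHIR99021 inhibits glycogen synthase kinase 3, and it was in the medium at both passages. Glycogen itself was not measured, and neither was enzyme activity.

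The synthesis genes were all higher at passage 20, while the phosphorylase genes went both ways. Of the 9 members, 6 were called higher, 2 lower and 1 was not called at an adjusted p under 0.05 in edgeR's quasi-likelihood test. Across all genes tested the same rule called 74.3% (37.0% higher and 37.3% lower), and nothing is read from the members' count, since this contrast entered their choice. The ranges of the passages did not overlap for any of the 9 members, nor for 77.5% of all genes tested (38.3% higher and 39.3% lower). Levels below are counts divided by library size and TMM factor (CPM), and fold changes and standard errors (SE) come from the edgeR fit. With library sizes only in place of TMM factors, the all-gene median log2 value went from -0.01 to -0.34, and 29.9% rather than 49.8% of the calls were higher. Small differences are therefore relative to the scaling.

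**Figure D1:**
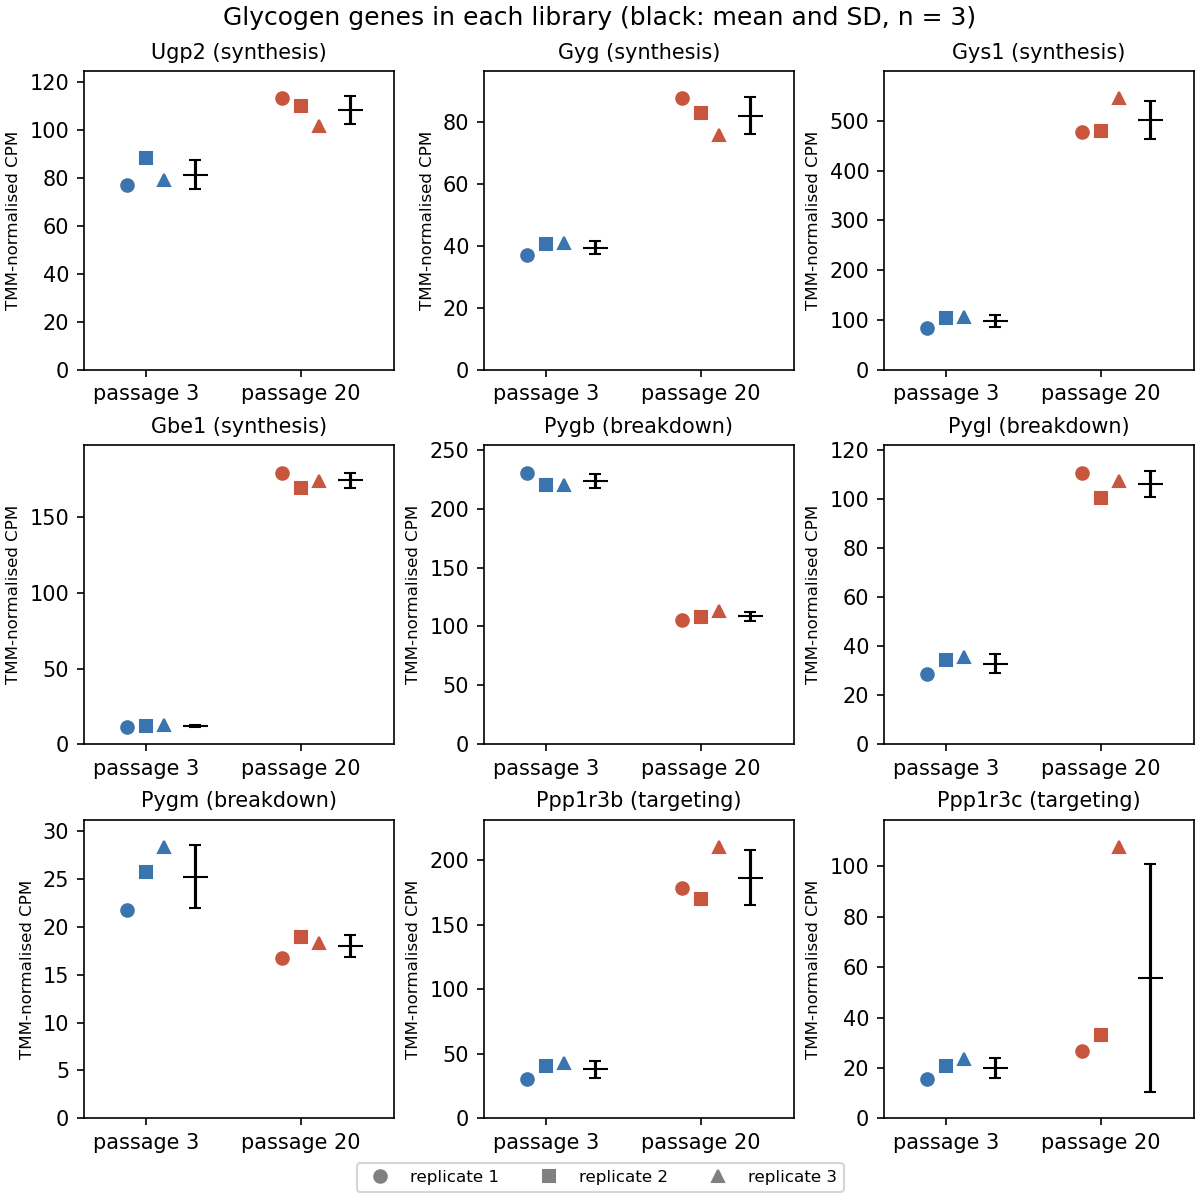
Each panel shows 1 gene, with TMM-normalised CPM on a linear axis from 0, 1 point per library and the mean with its SD (n = 3) in black. The passages separate in every panel, and in Ppp1r3c a single passage 20 library, at 108 CPM, stands far above the other two.

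The region before a gene's start holds its core promoter, and 4 are shown because Gys1 and Gbe1 had the highest fold changes of the 9, Pygb went the opposite way and Ppp1r3c differed between replicates. Sequences are from RefSeq on GRCm38.p6, read 5′ to 3′ on the gene's strand. The windows of 250 bases before the RefSeq start were cut back to their longest stretch outside annotated exons. Capitals mark matches on either strand to ACGTG or GCGTG, the core letters bound by hypoxia-inducible factors, and to the E-box CACGTG, which contains ACGTG. The stretches lie at chr7:45434710-45434838 (plus strand) for Gys1, chr16:70313699-70313948 (plus) for Gbe1, chr2:150786546-150786734 (plus) for Pygb and chr19:36736654-36736854 (minus) for Ppp1r3c.
Gys1: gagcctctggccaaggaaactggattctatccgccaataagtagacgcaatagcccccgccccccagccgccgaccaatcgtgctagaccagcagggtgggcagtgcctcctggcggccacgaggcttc
Gbe1: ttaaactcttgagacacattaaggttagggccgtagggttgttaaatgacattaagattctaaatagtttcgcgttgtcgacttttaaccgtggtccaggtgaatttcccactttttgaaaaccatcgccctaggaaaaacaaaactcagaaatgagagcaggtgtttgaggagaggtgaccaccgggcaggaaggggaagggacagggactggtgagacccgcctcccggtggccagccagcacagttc
Pygb: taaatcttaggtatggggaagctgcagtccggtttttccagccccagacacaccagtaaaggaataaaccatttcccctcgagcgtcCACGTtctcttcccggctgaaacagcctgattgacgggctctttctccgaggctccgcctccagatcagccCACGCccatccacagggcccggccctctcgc
Ppp1r3c: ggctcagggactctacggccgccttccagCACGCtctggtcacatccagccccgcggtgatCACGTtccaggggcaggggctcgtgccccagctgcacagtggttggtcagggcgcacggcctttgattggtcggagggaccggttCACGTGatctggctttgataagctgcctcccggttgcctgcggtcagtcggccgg
In the full 250 bases, Gys1 and Gbe1 held 0 matches to ACGTG or GCGTG. Pygb held 1 of each, and Ppp1r3c held 3 of ACGTG, both strands of its 1 CACGTG included, and 1 of GCGTG. Of 32851 RefSeq promoter windows of that length, 16.6% held ACGTG, 28.2% GCGTG, 38.6% at least 1 of the pair and 6.02% CACGTG. RefSeq windows were found for 8 of the 9 members, and those of Gyg, Pygl, Pygm and 1 of the 2 for Ugp2 also held at least 1 match. These letters mark no binding, and their absence in a window says nothing of the factor.

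Ugp2 (ENSMUSG00000001891, chromosome 11, 21321138 to 21371201 on GRCm38) encodes the pyrophosphorylase that makes UDP-glucose. Its levels were 77.0, 88.1 and 79.2 CPM at passage 3 and 113, 110.1 and 102 CPM at passage 20, 1.33-fold higher (log2 0.41, SE 0.07). Every passage 20 library lay above every passage 3 library, but this was the lowest fold among the 6 members called higher, and with library sizes only the log2 value was 0.08 and the gene was not called. Gyg (ENSMUSG00000019528, chromosome 3, 20122084 to 20155317), the glycogenin gene, stood at 37.1, 40.5 and 40.9 CPM at passage 3 and 87.7, 82.8 and 76.0 CPM at passage 20. That is 2.08-fold higher (log2 1.05, SE 0.07), with a wide gap between the passages.

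Gys1 (ENSMUSG00000003865, chromosome 7, 45434844 to 45456619) encodes the glycogen synthase of muscle and most other tissues. It went from 85.0, 105 and 105 CPM to 478, 480.0 and 545 CPM, 5.08-fold higher (log2 2.35, SE 0.09). Replicate 3 was the highest of the passage 20 libraries and replicate 1 the lowest at passage 3. Only 2.98% of genes tested had a log2 fold change at least as high. Gys1 shares 310 exon bases with Ruvbl2 on the opposite strand, and the sources used here do not say whether counting used strand, so its counts are uncertain by what falls there. Gys2, the liver synthase gene, had 0 counts in all 6 libraries.

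Gbe1 (ENSMUSG00000022707, chromosome 16, 70313949 to 70569716), the branching enzyme gene, differed most. It was at 11.2, 12.3 and 12.6 CPM at passage 3 and at 180, 170 and 174 CPM at passage 20, 14.5-fold higher (log2 3.85, SE 0.07). Libraries of 1 passage lay close together, with SDs of 0.737 and 5.06 CPM, and 0.588% of genes tested had a log2 fold change at least as high. Per kilobase of exon, Gbe1 went from 0.110 ± 0.00718 to 0.313 ± 0.0254 of the level of Gys1 (SD, n = 3), so the branching enzyme transcript gained on the synthase transcript within the same libraries.

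Pygb (ENSMUSG00000033059, chromosome 2, 150786735 to 150831758), the brain phosphorylase gene, was the member with the highest CPM at passage 3 and was lower later. Its levels were 231, 220.1 and 220.0 CPM at passage 3 and 105, 108 and 113 CPM at passage 20, 2.06-fold lower (log2 -1.04, SE 0.05). Pygl (ENSMUSG00000021069, chromosome 12, 70190811 to 70231488), the liver phosphorylase gene, ran the other way, from 28.5, 34.2 and 35.7 CPM to 111, 100.4 and 107 CPM. It was 3.23-fold higher (log2 1.69, SE 0.09), with no overlap between passages. Pygm (ENSMUSG00000032648, chromosome 19, 6384399 to 6398459), the muscle phosphorylase gene, had 21.7, 25.7 and 28.4 CPM at passage 3 and 16.7, 18.99 and 18.3 CPM at passage 20. It was 1.40-fold lower (log2 -0.49, SE 0.11), the smallest gap between the passages among the 3 phosphorylases.

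Summed per kilobase of merged exon, the 3 phosphorylase genes stood at 59.1 ± 0.558 CPM per kb at passage 3 and 43.6 ± 0.990 at passage 20 (SD, n = 3). The sum differed less than Pygb alone, since Pygl was higher. Pygb made up 78.7% ± 2.54 of the sum at passage 3 and 51.8% ± 0.957 at passage 20, while Pygl went from 8.05% ± 0.895 to 35.3% ± 1.70. Pygm held 13.3% ± 1.66 and 12.8% ± 0.859, a difference within the spread of replicates. Which of Pygb and Pygl led at passage 20 depends on the gene length used: with the longest coding transcript the shares were 39.96% for Pygb and 51.0% for Pygl, and at passage 3 Pygb led with 74.4% against 14.2%. How far the sum differed between passages depends on that length too. Per kb of the longest coding transcript, Pygb went from 57.2 to 27.8 CPM and Pygl from 11.0 to 35.5 CPM. Pygm went from 8.79 to 6.27 CPM per kb on that length.

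The 4 synthesis genes summed to 66.2 ± 4.91 CPM per kb at passage 3 and 207.5 ± 4.41 at passage 20. Gys1 alone went from 20.6 ± 2.43 to 105 ± 7.995 CPM per kb, and at passage 20 it was the highest of the 9 members per kb, where at passage 3 Pygb had been, at 46.5 ± 1.29. Gys1 divided by the 3 phosphorylases was 0.302, 0.374 and 0.368 in the passage 3 libraries and 2.31, 2.34 and 2.54 in the passage 20 libraries. This ratio, formed within each library and so free of the scaling between libraries, was 6.89-fold higher at passage 20. No library of 1 passage came near those of the other. The fold depends on the gene length used. With the longest coding transcript the mean ratio went from 0.348 to 1.96, and with no length correction from 0.349 to 2.15. Per kb of merged exon at passage 20, Ugp2 (35.3 ± 1.93), Gyg (35.1 ± 2.52), Gbe1 (32.6 ± 0.946) and Ppp1r3b (29.99 ± 3.43) followed Gys1. Their order depends on the length used, since per kb of the longest coding transcript Gbe1 stood at 52.8, Gyg at 42.8, Ppp1r3b at 42.5 and Ugp2 at 40.4, with Gys1 still highest at 136.

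**Figure D2:**
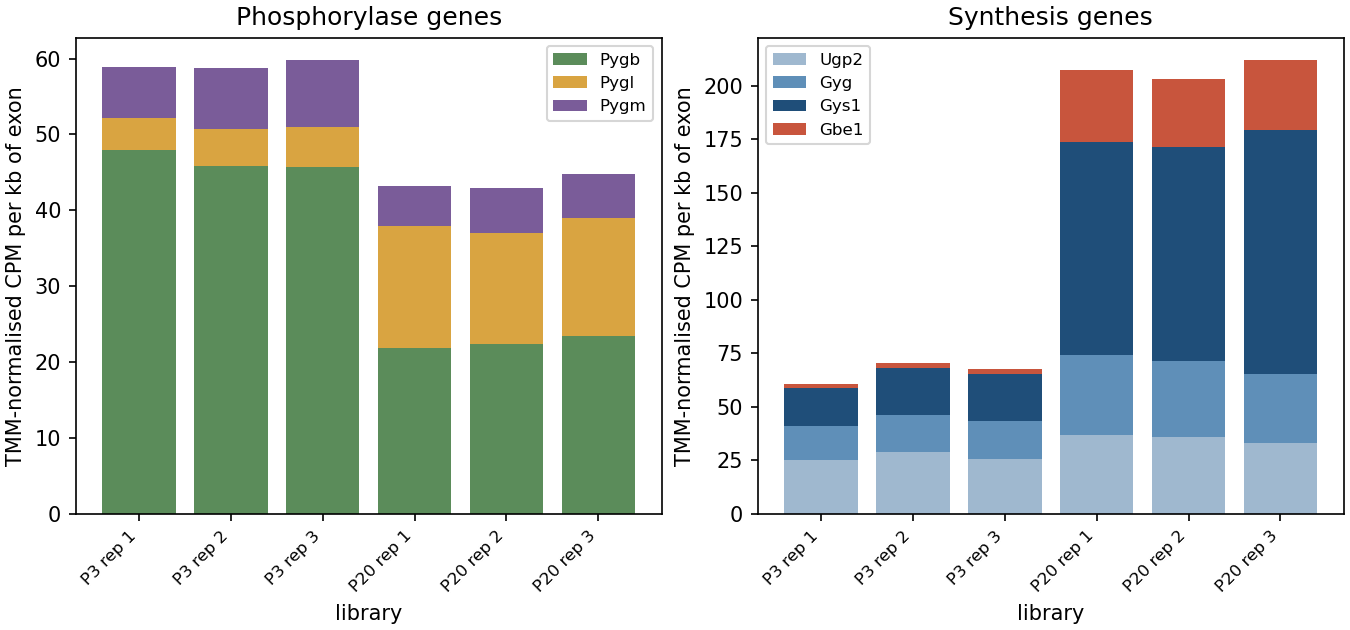
Stacked TMM-normalised CPM per kb of merged exon for the phosphorylase genes (left) and synthesis genes (right), 1 bar per library (P3, passage 3; P20, passage 20; rep, replicate). The phosphorylase bars shrink from about 59.1 to 43.6 with a larger Pygl part, while the synthesis bars grow from 66.2 to 207.5 on average, mostly through Gys1 and Gbe1.

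The targeting subunits bring protein phosphatase 1 to glycogen, where it activates the synthase and switches off phosphorylase. Ppp1r3b (ENSMUSG00000046794, chromosome 8, 35375739 to 35388139) had 30.6, 40.2 and 43.2 CPM at passage 3 and 179, 170.0 and 210.5 CPM at passage 20, 4.89-fold higher (log2 2.29, SE 0.13). The passages were far apart, and replicate 3 was again the highest at passage 20.

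Ppp1r3c (ENSMUSG00000067279, chromosome 19, 36731731 to 36736653) had 15.7, 20.9 and 23.6 CPM at passage 3 and 26.5, 32.9 and 108 CPM at passage 20. Replicate 3 of passage 20 was 3.62-fold above the mean of the other two, 29.7 CPM, and 1 library therefore set most of the difference. With all libraries the fold was 2.80 (log2 1.49, SE 0.66) and the gene was not called by edgeR. Without that library the log2 value was 0.54 (1.45-fold) and the gene was called, and DESeq2 called it with all 6 libraries at 1.48. The 8 other members kept their direction without that library, with log2 values between -1.08 for Pygb and 3.84 for Gbe1.

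Passage 20 replicate 3 stood apart beyond Ppp1r3c. There, 156 of the genes tested were over 2-fold above both other passage 20 libraries, against 25 and 16 for replicates 1 and 2, and 158 were over 2-fold below both others, against 80 and 81. Coding genes with 1 exon, looked at after the data had been seen, were called lower in 200 and higher in 85 of 367 cases, with a median log2 of -0.60, while coding genes with more exons had a median of 0.00. Relative to passage 3, the single-exon median was -0.75 in the other two libraries and -0.36 in replicate 3. No member has a single merged exon, and Ppp1r3c has 2. The part of this in the level of Ppp1r3c was not tested. Within passage 3, replicate 1 was the lowest library for 8 of the 9 members, all but Pygb, where 38.3% of genes tested had their lowest value there. Replicate 3 was the highest for 7 members, against 34.9% of genes tested.

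**Figure D3:**
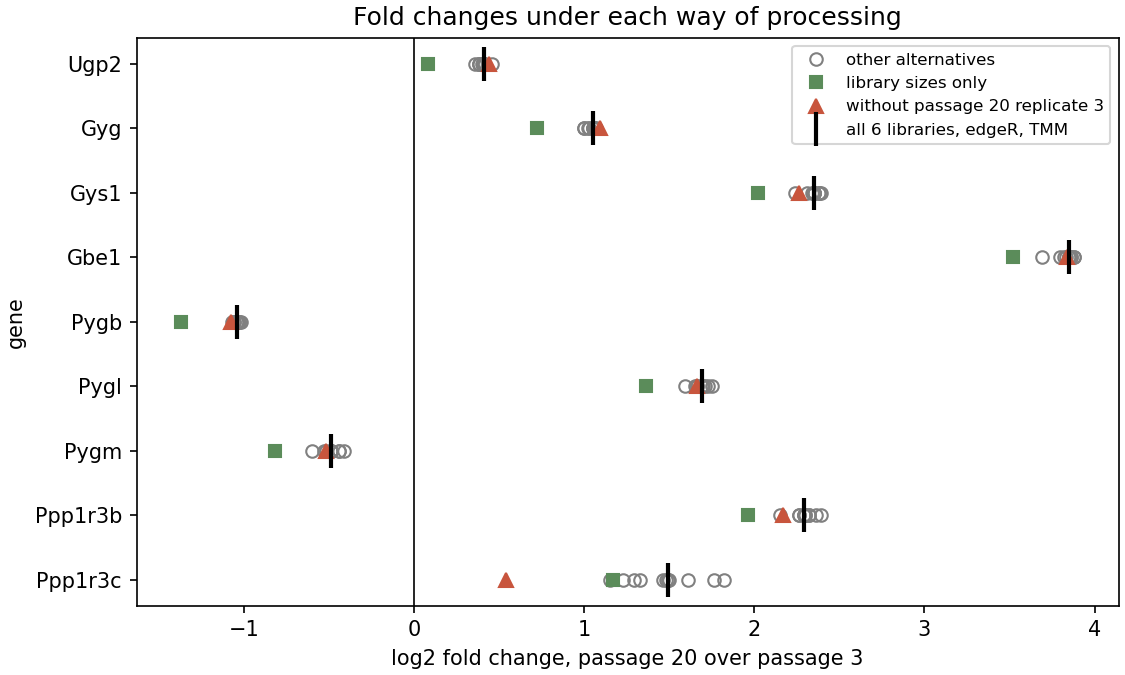
Log2 fold change of each member (passage 20 over passage 3) in the edgeR fit of all libraries (black bar) and under each alternative, with library sizes only as green squares and the fit without passage 20 replicate 3 as red triangles. The members lie on 1 side of 0 throughout, Ugp2 comes nearest at 0.08, and the triangle of Ppp1r3c drops to 0.54.

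The remaining genes of glycogen metabolism came from a list of 45 drawn up by role, with earlier results of these data known. Of these, 41 were tested, and 22 rose, 10 fell and 9 did not pass (edgeR's quasi-likelihood test, Benjamini-Hochberg adjustment over all genes, adjusted p under 0.05). Over all genes tested, 37.0% were called higher and 37.3% lower. The median log2 fold change of the 41 was 0.23, beside -0.01 for all genes tested. With library sizes only, 16 were called higher and 18 lower, with a median of -0.10 beside -0.34. Adjusted over all genes, the largest p among the 32 calls was 0.0141. Since the list was not drawn up blind to the data, these p-values are descriptive. Nothing is read from how many of the 41, or of a role group below, were called.

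Genes that handle glucose 6-phosphate all rose where tested, 5 of 5 (edgeR, largest adjusted p 0.000272), where 37.0% of all genes were called higher. The hexokinase gene Hk2 rose from 80.5 ± 21.7 to 781 ± 39.8 CPM (9.68-fold) and Hk1 from 150 ± 18.8 to 737 ± 23.8 CPM (4.89-fold). G6pc3, a glucose 6-phosphatase, rose 1.43-fold and its transporter gene Slc37a4 1.75-fold. The rise of G6pc3 was not called with library sizes only (log2 0.19). G6pc, the liver phosphatase gene, had 0 counts, and G6pc2 had 1 count in each of 2 libraries.

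Phosphoglucomutases convert glucose 6-phosphate to glucose 1-phosphate, the substrate of Ugp2. Pgm1 rose from 99.4 ± 16.01 to 424 ± 14.0 CPM (4.26-fold) and Pgm2 1.35-fold, while Pgm2l1, whose product makes glucose 1,6-bisphosphate, fell 3.56-fold from 38.3 ± 3.20 to 10.7 ± 1.35 CPM (edgeR, largest adjusted p 0.00027). Pgm2 was not called with library sizes only, at a log2 value of 0.10. Pgm1 shares 398 exon bases with Itgb3bp on the opposite strand, a gene with far fewer counts.

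Among genes of lysosomal and related glycogen breakdown, 4 of 5 rose (edgeR, largest adjusted p 0.00149), beside the same 37.0% of all genes. Gaa, the lysosomal glucosidase, rose 1.98-fold and Stbd1, a glycogen-binding protein of lysosomal delivery, 2.46-fold. Epm2a, encoding the glycogen phosphatase laforin, rose 4.85-fold from 6.79 ± 0.753 to 33.2 ± 1.83 CPM. Its partner Nhlrc1, encoding the ubiquitin ligase malin, fell 2.34-fold from 3.67 ± 0.526 to 1.54 ± 0.625 CPM. Nhlrc1 is a single-exon gene, a class with a median log2 of -0.60 in these data, and the part of that in its fall was not tested.

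Phosphorylase kinase activates phosphorylase, and of 8 genes for its subunits, 1 rose, 3 fell and 4 did not pass (edgeR, largest adjusted p of the calls 0.000195). Among all genes, 37.0% were called higher and 37.3% lower. Phka2 fell 1.47-fold from 48.0 ± 2.00 to 32.7 ± 4.09 CPM and Phkb 1.43-fold from 66.7 ± 0.734 to 46.7 ± 0.413 CPM. Phkg2, a catalytic subunit, rose 1.74-fold from 17.2 ± 1.25 to 29.98 ± 5.05 CPM. It shares 876 exon bases with Ccdc189 on the opposite strand, so its counts are uncertain. Phka1 had a log2 value of -0.23 with an adjusted p of 0.0718 (edgeR), and Phkg1, with 1.55 CPM at passage 20, of -0.53 with 0.0583. Phka1 was called without passage 20 replicate 2 (log2 -0.30) and Phkg1 without replicate 1 (-0.73), and both with library sizes only (-0.57 and -0.86). Phka1 was also called with no filter on low counts (-0.27). Phkg1 shares 630 exon bases with Sumf2 on the opposite strand, a gene with far more counts.

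Of 10 further genes of protein phosphatase 1, 5 were called higher, 3 lower and 2 not at all (edgeR, largest adjusted p of the calls 0.0141), near the 74.3% called among all genes. Among the other targeting subunits, Ppp1r3g rose 4.09-fold to 10.5 ± 2.70 CPM and Ppp1r3e 2.04-fold to 4.02 ± 0.444 CPM. Ppp1r3a, the muscle subunit, fell 11.1-fold from 2.16 ± 0.163 to 0.181 ± 0.0750 CPM, where the passage 20 libraries held 2, 1 and 3 counts. Ppp1r3f fell 4.03-fold to 0.368 CPM and overlaps exons of Foxp3, Flicr and Gm36995, so it is uncertain. On the authors' deposited log2 values the changes of Ppp1r3a and Ppp1r3f were -1.47 and -0.88, against -3.47 and -2.01 from counts. The catalytic subunit genes Ppp1cb and Ppp1cc rose 1.503-fold and 1.71-fold, and Ppp1ca stood at 251 ± 5.22 and 256 ± 15.4 CPM. The inhibitor gene Ppp1r1a rose 2.12-fold, and Ppp1r2, an inhibitor, fell 1.18-fold but did not pass without passage 20 replicate 1 or 2 (adjusted p 0.0519 and 0.0707, edgeR).

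Of the kinase genes, 5 of 10 tested rose, 2 fell and 3 did not pass (edgeR, largest adjusted p of the calls 0.00648), again near the 74.3% called among all genes. Gsk3b rose 1.17-fold, and Prkaca and Prkaa1 1.15-fold and 1.25-fold, but these 3 turned to log2 values of -0.10, -0.13 and -0.01 with library sizes only. Subunits of AMP-activated kinase, some of which bind glycogen, went both ways. Prkaa2 rose 2.74-fold to 45.7 ± 1.07 CPM and Prkab2 2.19-fold to 147 ± 3.17 CPM, while Prkab1 fell 1.63-fold to 28.2 ± 3.46 CPM and Prkag2 1.52-fold.

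**Figure D4:**
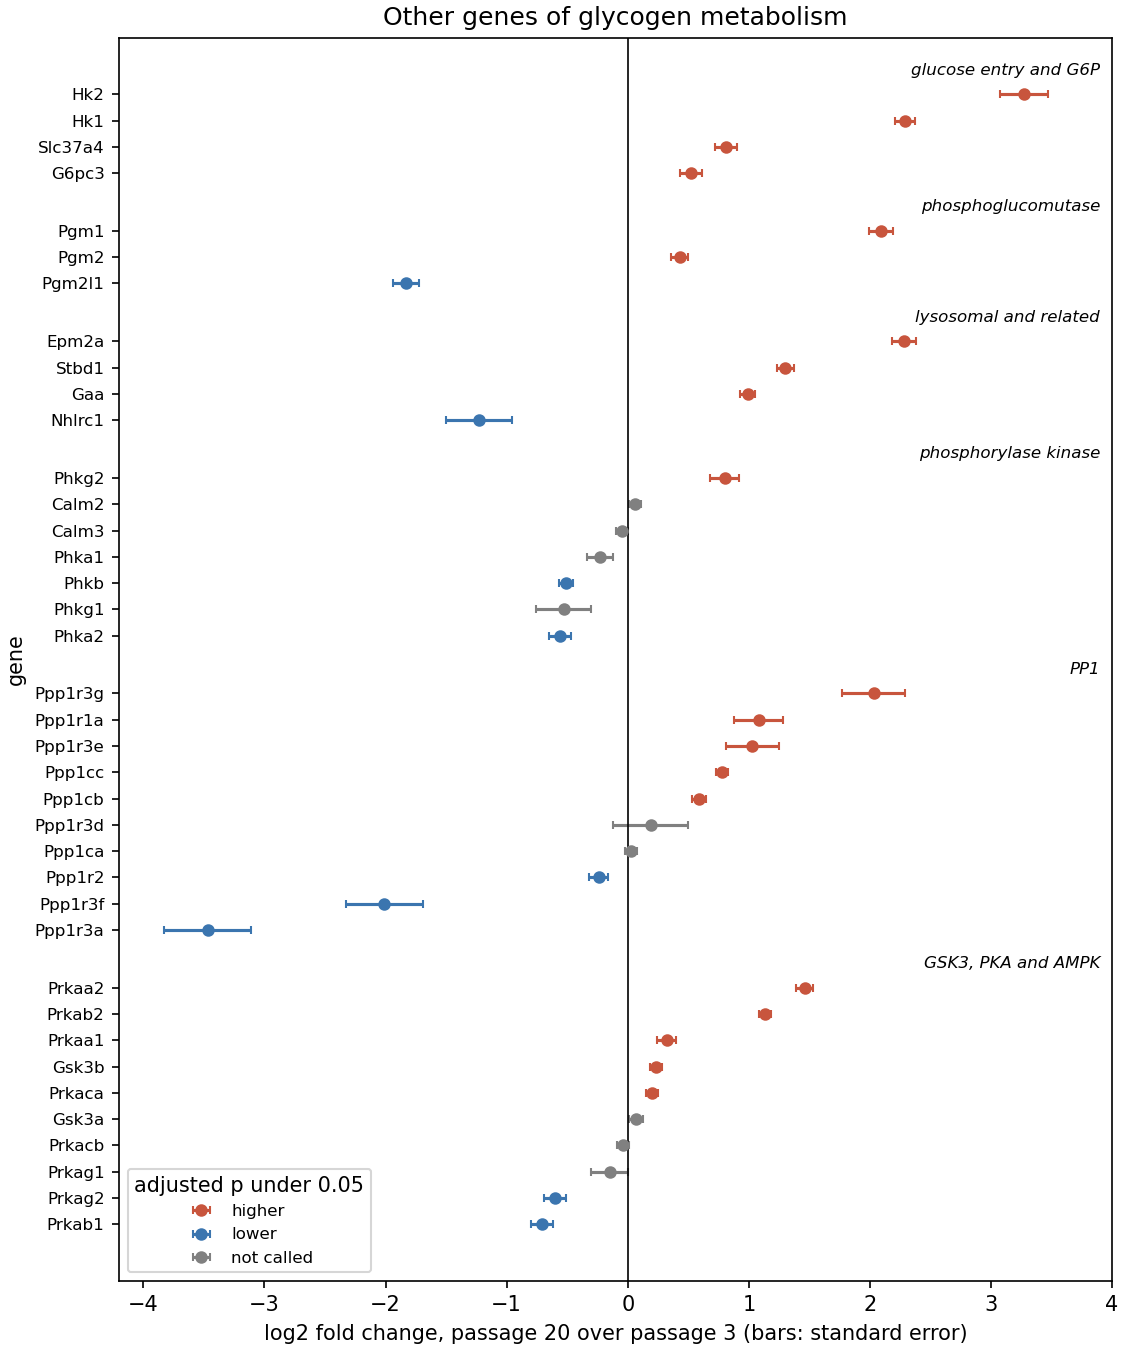
Log2 fold change with its standard error for 38 of the 41 tested genes outside the 9 members, grouped by role (G6P, glucose 6-phosphate; PP1, protein phosphatase 1) and coloured by the edgeR call. Hk1 and Hk2 lie at 2.29 and 3.27 and Pgm1 at 2.09, whereas most phosphorylase kinase genes lie below 0.

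Profiles most like those of Gys1 and Gbe1 were sought among 13072 coding genes by the root mean square distance of centred log2 CPM over 6 libraries, where genes with a like fold change rank near by construction. Nearest to Gys1 were Foxc2 (0.031), Hk1 (0.058) and Glis3 (0.065), and 117 genes lay within 0.2. Nearest to Gbe1 were Bhlhe40 (0.050), Apln (0.099) and Ifi203 (0.112), and 16 genes lay within 0.2. Ifi203 went from 0.0585 CPM at passage 3 to 2.73 CPM at passage 20. At levels that low the prior count of 2 narrows the log2 difference, so its fold is not like that of Gbe1.

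Markers of cardiac progenitors, of fibroblasts, from which the cells were reprogrammed, and of other cell types were read in the same libraries. All 8 cardiac progenitor markers were tested, with 4 called higher and 4 lower, beside 37.0% and 37.3% of all genes tested. None of the 8 had a mean under 1 CPM. Their sum was 763 to 786 CPM at passage 3 and 642 to 710.2 CPM at passage 20, over unlike moves of single genes. Isl1 went from 63.2 ± 5.72 to 7.45 ± 0.534 CPM and Pdgfra from 328 ± 7.01 to 134 ± 0.743, while Mef2c went from 39.1 ± 2.63 to 105 ± 3.74 and Nkx2-5 from 1.15 ± 0.211 to 5.24 ± 0.371. Of 8 hepatocyte markers, 7 had a mean under 1 CPM (sums of 2.47 to 2.93 and 1.78 to 2.49 CPM), and of 8 skeletal muscle markers, 5 (sums of 7.41 to 9.05 and 14.7 to 17.9 CPM, with Myf5 at 0). Of 4 skeletal muscle markers tested, 1 was called higher and 1 lower. Acta1 went from 2.03 ± 0.664 to 11.6 ± 1.92 CPM, while Myh4 went from 1.67 ± 0.174 to 0.369 ± 0.0624 and Casq1 from 3.49 ± 0.544 to 2.58 ± 0.295. Astrocyte markers, mostly Slc1a3, summed to 42.6 to 47.7 and 92.4 to 99.98 CPM. Of the 6, 4 were tested, with 2 called higher and 2 lower. Of 6 fibroblast markers, 5 were called higher and 1 lower, where 37.0% of all genes tested were called higher and 37.3% lower. Their sum, mostly Col1a1, Col1a2 and Col3a1, was 11994 to 12761 CPM at passage 3 and 26538 to 31468 CPM at passage 20. Thy1 was the lower one, at 13.1 ± 0.190 and 5.64 ± 1.68 CPM. Adipocyte markers were at 1.46 to 1.601 and 11.6 to 16.7 CPM (1 of 5 tested and called higher, Lep at 0). Fabp4 among them went from 0.826 ± 0.240 to 12.9 ± 2.46 CPM. Macrophage markers were at 7.23 to 8.43 and 8.15 to 11.0 CPM (2 of 5 tested, 1 called higher, Ptprc and Itgam at 0). The part of these markers in the members' levels was not tested, and in bulk RNA fewer cells of a type cannot be told apart from less RNA per cell.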

How the data were processed

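RNA was sequenced from 3 libraries at passage 3 and 3 at passage 20. Tools listed in the submitters' processing notes, without roles, are HISAT2 2.0.5, HTSeq, SAMtools and DESeq2, and the build is GRCm38. No source used here gives the annotation release or strand setting. Counts per gene, as whole numbers, and values on a log2 scale were deposited by the authors, whose transformation is not stated. Symbols, positions and exon lengths came from GENCODE M21 (GRCm38), which matched 53706 of 53801 gene identifiers; the 95 others took 0.00623% of counts. The 2 tables of the whole series were not used.

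Genes were filtered with filterByExpr (15143 kept), scaled with TMM factors (1.12 to 1.13 at passage 3, 0.873 to 0.917 at passage 20) and tested with the robust quasi-likelihood test of edgeR 4.0.16 in R 4.3.3, passage 20 against passage 3, with Benjamini-Hochberg adjustment and a threshold of 0.05. The standard error is the log2 fold change divided by the square root of the test's F. Libraries held 11387738 to 17721788 counts, and the common biological coefficient of variation was 7.05%. In simulated data, the test recovered 57 of 67 genes changed 1.5-fold and 67 of 67 changed 2-fold, and called 7 unchanged genes. That simulation had few changed genes and a single dispersion. In the real data 74.3% of genes were called, so it does not show how the test does there. Levels between genes are per kilobase of merged exon. Promoters came from RefSeq (GRCm38.p6).

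The members and lists were chosen with earlier results of these data known. All members are named; other pathway genes are named where called and the rest counted; some called genes are counted but not reported singly here. As an exception, Phka1, Phkg1, Ppp1ca, Gys2, G6pc and G6pc2 were named after their values were seen. So were Calm2, Gsk3a and Ppp1r3d, in the account of how the results depend on the processing. Profile neighbours are the 3 smallest distances, with a prior count of 2, among genes with an established coding symbol. The single-exon genes and the genes 2-fold above both other libraries were looked at after the data were seen. Alternatives were library sizes only, RLE factors, limma-voom (limma 3.58.1), DESeq2 1.42.0, no filter, 1 CPM in 3 libraries, each library left out, a replicate block, a threshold of 0.01, limma on the deposited log2 values, and other gene lengths.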

Additional observations from a re-analysis of the deposited data

How the results depend on the processing

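Across 14 alternatives for each of 9 members, 123 of 126 values kept their direction and side of the threshold, and 0 reversed. The exceptions were Ugp2 with library sizes only and Ppp1r3c with DESeq2 and without passage 20 replicate 3. Of 574 such values for the other pathway genes, 550 did, 8 lost a call, 11 gained one and 11 changed sign, some of them both. With library sizes only the sign changed for Calm2 (-0.27), Ppp1ca (-0.30) and Gsk3a (-0.26), which gained a call, for Gsk3b (-0.10), Prkaa1 (-0.01) and Prkaca (-0.13), which lost theirs, and for Ppp1r3d (-0.13). Without passage 20 replicate 3, Ppp1r3d (-0.19) and Ppp1ca (-0.04) changed sign without a call, and Ppp1ca lay just under 0 in 2 further settings. With library sizes only, 3528 genes were called higher and 8273 lower, in place of 5604 and 5641, and 18 pathway genes were lower in place of 10. Leaving out 1 library in turn gave 5289 to 6103 genes higher, 5244 to 6266 lower, 22 and 10 pathway genes, and 6 to 7 and 2 members.

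With the longest coding transcript as length, or with no length correction, Pygb took 39.96% or 46.7% of phosphorylase at passage 20 (74.4% at passage 3 with the transcript length). Pygl took 51.0% or 45.6% at passage 20 and 14.2% or 11.6% at passage 3, and Pygm 9.02% or 7.74% and 11.4% or 8.96%. Gys1 to phosphorylase was 1.96 or 2.15 at passage 20 and 0.348 or 0.349 at passage 3. Gbe1 to Gys1 was 0.389 or 0.350 at passage 20 and 0.137 or 0.123 at passage 3. Leaving out libraries gave 77.3% to 79.7% and 51.5% to 52.4% for Pygb, 7.73% to 8.56% and 34.4% to 36.0% for Pygl, 12.5% to 14.2% and 12.4% to 13.2% for Pygm, 0.335 to 0.371 and 2.32 to 2.44 for Gys1 to phosphorylase, and 0.106 to 0.113 and 0.301 to 0.326 for Gbe1 to Gys1.

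The labels share replicate numbers between passages, but same-numbered libraries showed little joint deviation (Pearson r across genes of 0.0143, -0.0273 and 0.0454). Noise between libraries could hide a shared culture, so these values do not exclude pairing, and the labels do not give it. With the replicate block 5521 genes were higher and 5582 lower, with 22 and 10 pathway genes and 6 and 2 members called, and Ppp1r3c at 1.29. Low counts limit Ppp1r3a, Ppp1r3d and Ppp1r3f, and the changes with library sizes only follow from dropping the TMM factors.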
